A study of Mus musculus with 26 samples.

Results

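The cytosolic ribosome of the mouse is built from ribosomal RNA and a fixed set of proteins, most of them encoded by a single active gene with the symbol Rpl (large subunit) or Rps (small subunit). These genes were selected by symbol from a table of transcript levels in mouse embryonic stem (ES) cells. Symbols of the form Rpl or Rps with a number and at most a short suffix were taken, together with *Rplp0*, *Rplp1*, *Rplp2* and *Rpsa*. Of the 24409 genes in the table, 84 met this rule, 51 for the large and 33 for the small subunit. Left out were 7 pseudogene rows, 10 rows of ribosomal S6 kinases, and the 4 rows *Rpl36al*, *Rpl37rt*, *Rps27rt* and *Rps19bp1*. The 84 genes lay on 19 chromosomes, 14 of them on chromosome 7 and 7 on chromosome 11, against 77 outside chromosome 11.

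Ribosomal RNA and ribosomal proteins are made in equal numbers and joined in the nucleolus, and a shortage of a single protein can halt assembly of its subunit. Most ribosomal protein messages start with a run of pyrimidines, the terminal oligopyrimidine tract, through which mTORC1 signalling adjusts their translation together. ES cells divide rapidly and devote a large share of their transcripts to these messages. ZFP57 is a KRAB zinc finger protein that binds a methylated hexanucleotide and protects DNA methylation at imprinting control regions.

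The RNA came from male ES cells of the C57BL/6J strain, 3 WT samples and 2 ZFP57 KO samples. The KO cells carried a targeted disruption of *Zfp57* in the exons for its KRAB domain and zinc fingers, on both copies. It was a zygotic deletion, from mothers that still had a working copy. Morulae were collected at E2.5, grown for 2 days with inhibitors of Erk and Gsk3 (2i), and the inner cell masses were cultured in 2i and LIF for at most 15 passages. WT and KO cells thus shared strain, sex, medium and passage limit. The labels number the samples as separate ES cell lines and state that every line was karyotyped. With 3 lines against 2, p-values measure the spread between these lines. Total RNA was depleted of ribosomal RNA and sequenced as paired reads of 150 bp, and the values are FPKM, fragments per kilobase of transcript, scaled to library size, deposited with 2 decimals.

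The 5 libraries were of similar depth, where 1 fragment on 1 kb was worth an estimated 0.0170 to 0.0198 FPKM, read from the step between FPKM values of short genes. Total FPKM ranged from 207670 to 213690 and cannot be compared with the amount of RNA per cell, so fewer cells of a type and less RNA per cell cannot be told apart. *Zfp57* itself measured 75.9, 72.3 and 70.6 FPKM in WT and 19 and 21.6 FPKM in KO (log2 fold change -1.84, SE 0.06, limma adjusted p = 0.000234). Of 11 pluripotency genes, all were detected in every library, with *Pou5f1* at 159 to 210 FPKM, whereas the 9 fibroblast markers summed to 0.43 to 0.60 FPKM and *Lum*, *Dcn*, *Col3a1* and *S100a4* were at 0 throughout. The 7 primitive endoderm markers summed to 0.77 to 0.93 FPKM in WT and to 1.44 and 1.12 in KO, of which *Sox7* made up 0.09 to 0.15 in WT and 0.90 and 0.48 in KO. Without *Sox7* the other 6 summed to 0.66 to 0.84 FPKM in WT and 0.54 and 0.64 in KO. Over the 4 that were tested the median change was -0.17 (log2), with *Sox7* called higher and the other 3 below 0 without a call. The 6 trophoblast markers summed to 0.82 to 1.33 FPKM in WT and 2.99 and 3.36 in KO, and without *Eomes* the other 5 summed to 0.44 to 0.73 in WT and 0.86 and 0.96 in KO. Their part in the results below was not tested.

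The start of transcription is shown for some of the genes named below. In each line 10 bases before and 20 bases from the annotated start on are given, 5′ to 3′ on the gene's strand, from RefSeq on GRCm38.p6 (mm10). Capitals mark a C followed by at least 4 pyrimidines that begins within 5 bases of the start. Runs of pyrimidines further from the annotated start, such as a downstream run in *Rpl26*, are not marked or counted. The start used in these cells was not measured, so a gene without a marked tract may still have one. The first group holds the 5 ribosomal protein genes of chromosome 11 that had a promoter entry. Only *Rpl19* and *Rpl38* had a tract so close to the annotated start. *Rpl19* has 2 annotated starts, and the first is shown.
Rpl19 (chr11:98026700-98026729, + strand): aaacgCCCTCactgcgcatgtgcgccgcgg
Rpl38 (chr11:114668570-114668599, + strand): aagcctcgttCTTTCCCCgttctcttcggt
Rpl26 (chr11:68901556-68901585, + strand): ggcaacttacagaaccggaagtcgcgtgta
Rpl27 (chr11:101442235-101442264, + strand): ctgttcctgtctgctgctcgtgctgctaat
Rpl23 (chr11:97782420-97782449, - strand): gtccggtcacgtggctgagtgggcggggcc

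The second group holds genes of other chromosomes. The tracts of *Rps10*, *Rplp2* and *Rpl14* (13, 9 and 10 bases, against 20 in *Rpl27a*) are examples. Beside them stand *Rps2*, *Rpsa* and *Rps13*, whose messages had the highest fold changes among abundant members.
Rps10 (chr17:27635225-27635254, - strand): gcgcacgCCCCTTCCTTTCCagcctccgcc
Rplp2 (chr7:141447641-141447670, + strand): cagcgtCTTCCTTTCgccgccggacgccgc
Rpl14 (chr9:120571507-120571536, + strand): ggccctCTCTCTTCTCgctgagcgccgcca
Rps2 (chr17:24720053-24720082, + strand): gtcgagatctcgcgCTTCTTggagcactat
Rpsa (chr9:120127756-120127785, + strand): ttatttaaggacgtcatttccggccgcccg
Rps13 (chr7:116334171-116334200, - strand): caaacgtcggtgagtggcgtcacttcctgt

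Promoter entries were found for 63 of the 84 genes. A tract at the start was present in 29 of them (46.03%), against 21.2% of the 27025 genes with an entry and 27.04% of 159 other abundant genes, those averaging 100 FPKM or more over the 5 libraries. It was present in 2 of the 5 genes of chromosome 11 and in 27 of the 58 elsewhere. The letters CCGGAAG, the core of the site bound by ETS-family factors such as GABP, were found on either strand of the 300 base promoter in 26 of the 63 genes (41.3%), against 9.93% of all genes and 22.6% of the abundant other genes. AAGATGGC, the core of the YY1 site, was present in 6 genes (9.52%), against 3.19% of all genes and 5.66% of the abundant other genes. TGCCGC, the hexanucleotide of ZFP57, was found on either strand in 11 (17.5%), against 13.1% of all genes and 32.1% of the abundant other genes. A match of letters is a description and does not show binding. The 90 bases around the starts of 3 genes of chromosome 11 show CCGGAAG, or its reverse complement in *Rpl19*, in capitals, with 60 bases before and 30 bases from the start on.
Rpl26 (chr11:68901506-68901595, + strand): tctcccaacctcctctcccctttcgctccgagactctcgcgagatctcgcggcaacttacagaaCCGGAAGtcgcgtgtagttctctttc
Rpl38 (chr11:114668520-114668609, + strand): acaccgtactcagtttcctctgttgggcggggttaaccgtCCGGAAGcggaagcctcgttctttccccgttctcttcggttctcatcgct
Rpl19 (chr11:98026650-98026739, + strand): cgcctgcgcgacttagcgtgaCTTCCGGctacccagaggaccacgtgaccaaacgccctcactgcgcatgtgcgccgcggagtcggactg

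In WT cells the ribosomal protein genes were among the most abundant messages. Their summed FPKM took 12.2 to 12.6% of the library total in WT. WT means ranged from 0.25 to 894 FPKM with a median of 274 FPKM, and 75 of the 84 genes had a WT mean of at least 100 FPKM. The highest WT means belonged to *Rps20* (894 ± 37.0 FPKM, SD, n = 3), *Rpl23a* (750 ± 25.6), *Rplp1* (732 ± 23.1), *Rpl4* (716 ± 18.4) and *Rps23* (715 ± 17.5). Levels of different genes depend on the transcript length used in the deposited table, which is not given. *Rps15a* stood at 22.9 ± 0.25 FPKM (SD, n = 3), and its annotated exons together span 5136 bp, against a median of 757.5 bp over the 84 genes. Among the 81 genes with a WT mean of at least 10 FPKM, the coefficient of variation over the WT lines had a median of 3.15% and a maximum of 9.77%.

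WT and KO lines were then compared for each gene to ask which ribosomal protein messages changed without ZFP57. All 84 genes passed the filter on low values and were tested with limma, as part of 14612 genes. On chromosome 11 each of the 7 messages was lower in KO, and outside it 31 of 77 were called higher and 1 lower. At an adjusted p under 0.05, 31 of the 84 genes were higher in KO, where 18.8% of all 14612 tested genes were, and 8 were lower, where 22.3% of all tested genes were. The 8 were the 7 genes of chromosome 11 and *Rpl3l*. The number of higher calls depended on single lines. It was 16 without the second KO line, 18 without the second WT line and 20 without the third WT line, and 14 when the variance was modelled without a trend on abundance. Both KO libraries lay above all WT libraries for 53 genes, against 30.3% of all tested genes, and below all WT libraries for 8 genes, against 33.1% of all tested genes.

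**Figure D1:**
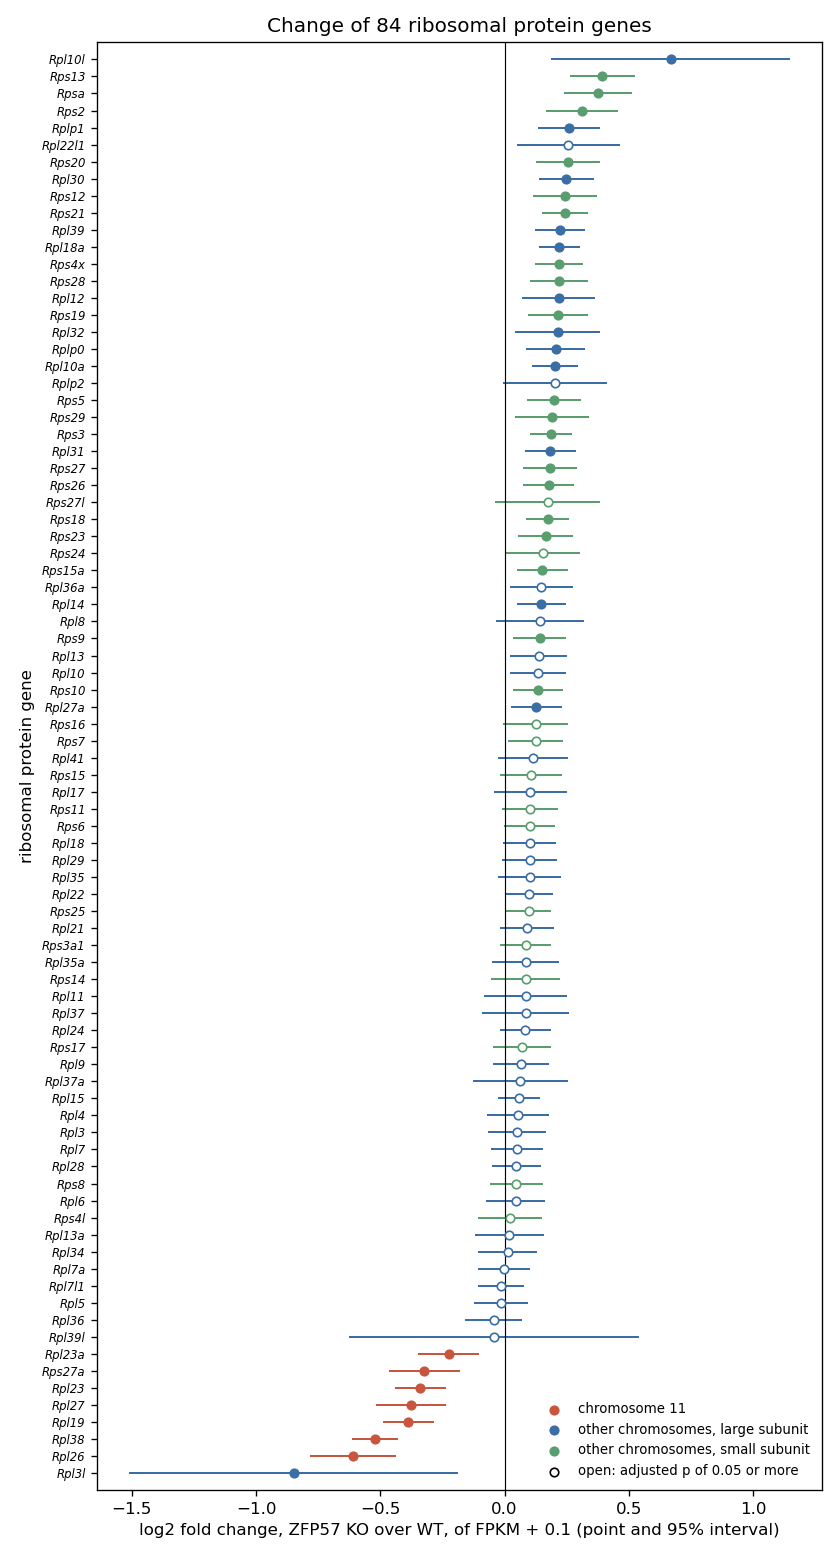
Log2 fold change of FPKM + 0.1 in ZFP57 KO (n = 2) over WT (n = 3) for each of the 84 ribosomal protein genes, with its 95% interval from limma. Filled points have an adjusted p under 0.05. The 7 genes of chromosome 11 lie between -0.61 and -0.23, and genes elsewhere with at least 10 FPKM in WT lie between -0.04 and 0.39.

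*Rpl26*, a protein near the exit tunnel of the large subunit that is also known to bind *Trp53* messenger RNA, measured 726, 645 and 723 FPKM in the WT lines and 476 and 438 FPKM in the KO lines. Every KO value lay below every WT value. The KO mean was 65.5% of the WT mean (log2 fold change -0.61, SE 0.07, limma adjusted p = 0.00147). *Rpl38*, which in the mouse embryo is required for translation of a subset of Hox messages, measured 252, 254 and 260 FPKM in WT and 181 and 176 FPKM in KO. The lines of each group lay close together and the groups did not overlap (KO mean 69.6% of WT, log2 fold change -0.52, SE 0.04, limma adjusted p = 0.000453).

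*Rpl19*, part of a bridge between the subunits, measured 527, 531 and 546 FPKM in WT and 402 and 415 FPKM in KO. Again the KO lines were the lowest (76.4% of WT, log2 fold change -0.39). *Rpl27* measured 400, 414 and 444 FPKM in WT and 331 and 315 FPKM in KO, with no overlap (77.1% of WT, log2 fold change -0.37). *Rpl23*, known to bind MDM2 when ribosome assembly is disturbed, measured 322, 306 and 313 FPKM in WT and 244 and 252 FPKM in KO. The KO mean was 79.0% of the WT mean (log2 fold change -0.34).

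*Rpl23a* forms the docking site for factors at the exit tunnel. It measured 778, 728 and 744 FPKM in WT and 627 and 656 FPKM in KO, the smallest relative difference among the 7 genes (85.5% of WT, log2 fold change -0.23, SE 0.05, limma adjusted p = 0.0136). Without the first KO line its call was lost (limma adjusted p = 0.0635). *Rps27a*, which encodes ubiquitin fused to a small subunit protein, measured 290, 306 and 313 FPKM in WT and 254 and 231 FPKM in KO. The groups were separate (80.0% of WT, log2 fold change -0.32).

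**Figure D2:**
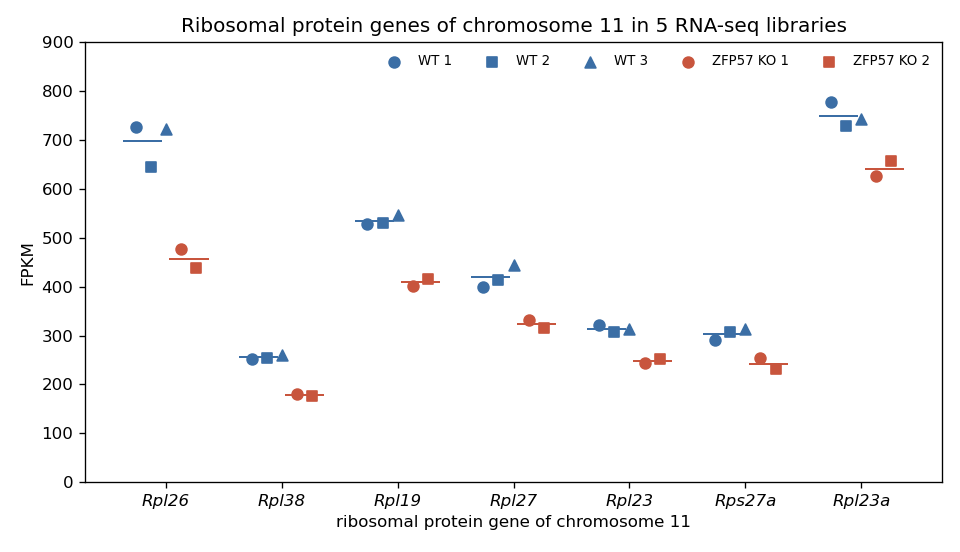
FPKM of the 7 ribosomal protein genes of chromosome 11 in the 3 WT and 2 ZFP57 KO libraries, with a line at each group mean. For every gene both KO values lie below the 3 WT values, with KO means between 65.5% (*Rpl26*) and 85.5% (*Rpl23a*) of the WT means.

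The same direction was seen over chromosome 11 as a whole. Of its 1217 other tested genes, 67.2% were called lower in KO, and among the 40 abundant ones (again 100 FPKM or more) 87.5% were. The 7 calls among 7 ribosomal protein genes therefore stand beside a high background on this chromosome. Their median log2 fold change was -0.37, against -0.47 for the 1217 other genes and -0.40 for the 40 abundant ones. Within 5 Mb of each gene, the median of the other tested genes ranged from -0.53 (around *Rpl19*) to -0.37 (around *Rps27a*, 42 genes). *Rpl26* and *Rpl38* lay below the median of their neighbours, by -0.13 and -0.07, and the remaining 5 lay above it, *Rpl23a* by 0.30. When the median change of its own chromosome was subtracted from each gene, the split of 31 higher and 8 lower calls became 31 and 1, the lower gene then being *Rps4l* (limma adjusted p = 0.0426). None of the 7 was then called lower, and *Rpl23a* was called higher (log2 fold change 0.25, limma adjusted p = 0.0145).

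None of the 7 genes lay within 20 kb of a ZFP57 peak from the C57BL/6J lines. The nearest distances on chromosome 11 were 36938 bp for *Rpl19* and 59604 bp for *Rpl38*. Over all 84 genes 3 had a peak within 20 kb (3.57%), against 4.25% of all placed genes. Of these, *Rps29* at 4492 bp was called higher in KO (log2 fold change 0.19, SE 0.06, limma adjusted p = 0.0432, up to 0.209 with a library left out, and called in 9 of 18 fits), *Rpl15* at 12010 bp had a log2 fold change of 0.06 (limma adjusted p = 0.214), and *Rpl39l* at 12146 bp had -0.04 (limma adjusted p = 0.902).

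**Figure D3:**
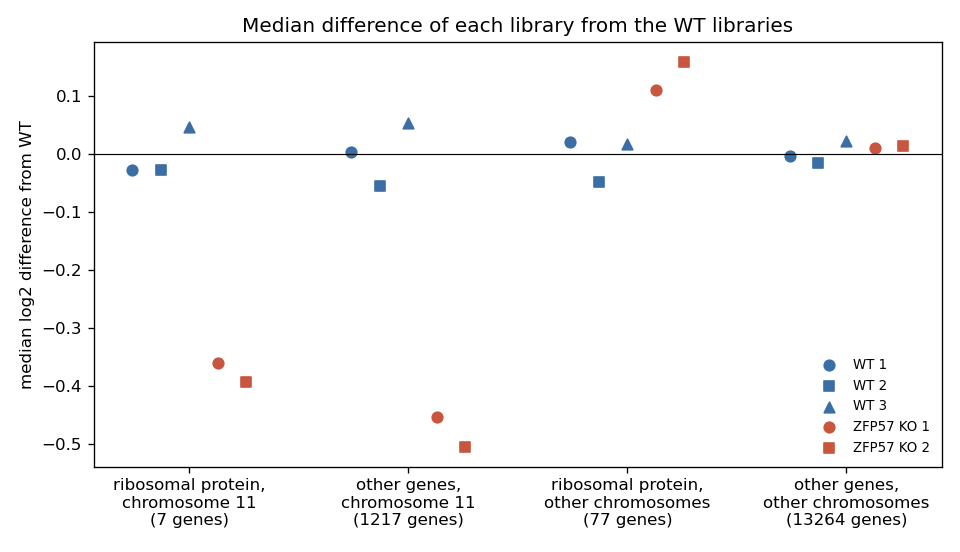
Median log2 difference of each library from WT over 4 sets of tested genes. KO libraries are set against the mean of the 3 WT libraries, and each WT library against the mean of the other WT libraries. KO medians are -0.36 and -0.39 for the ribosomal protein genes of chromosome 11 and 0.11 and 0.16 for those elsewhere, and WT medians lie between -0.06 and 0.05 in all 4 sets.

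Outside chromosome 11 the 77 ribosomal protein genes had a median log2 fold change of 0.13, against 0.01 for 13264 other genes and 0.07 for the 193 abundant ones among them. After quantile normalization these medians were 0.068, 0.033 and 0.045, and 29.9% of the 77 and 29.5% of the 193 were called higher. The median was 0.11 in the first and 0.16 in the second KO line relative to the WT mean, while a WT line differed from the other WT lines by -0.05 to 0.02. For 71 of the 77 genes the fold change was above 0, against 6850 of the 13264 other genes and 127 of the 193 abundant ones. Both KO lines lay above all WT lines for 53 of the 77, against 32.4% of the other and 50.3% of the abundant genes. Calls were made for 31 as higher and for *Rpl3l* as lower. The background differs with abundance. Higher calls were made for 20.2% of the other genes of these chromosomes but for 37.3% of the abundant ones, beside which the 31 of 77 (40.3%) stand. Lower calls were made for 14.0% of the abundant genes and for 1 of the 77.

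Compared chromosome by chromosome, the median of the ribosomal protein genes was above that of the other tested genes on 18 of 19 chromosomes. On chromosome 11 the difference was 0.10. These other genes are of all levels, and abundant ones also had higher medians, -0.40 against -0.47 on chromosome 11 and 0.07 against 0.01 elsewhere. Abundant genes were not compared by single chromosome. Several medians rest on few members, 1 on chromosome 13 and 2 each on chromosomes 8, 14 and 18. The members' median was below on chromosome 6, which holds only *Rpl32* and *Rps4l*, by -0.05, and the highest difference was 0.18 on chromosome X. The 14 genes of chromosome 7 had a median of 0.13 with 7 higher and 0 lower calls. The 1150 other genes there had a median of 0.00, with 17.5% called higher and 19.0% lower.

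**Figure D4:**
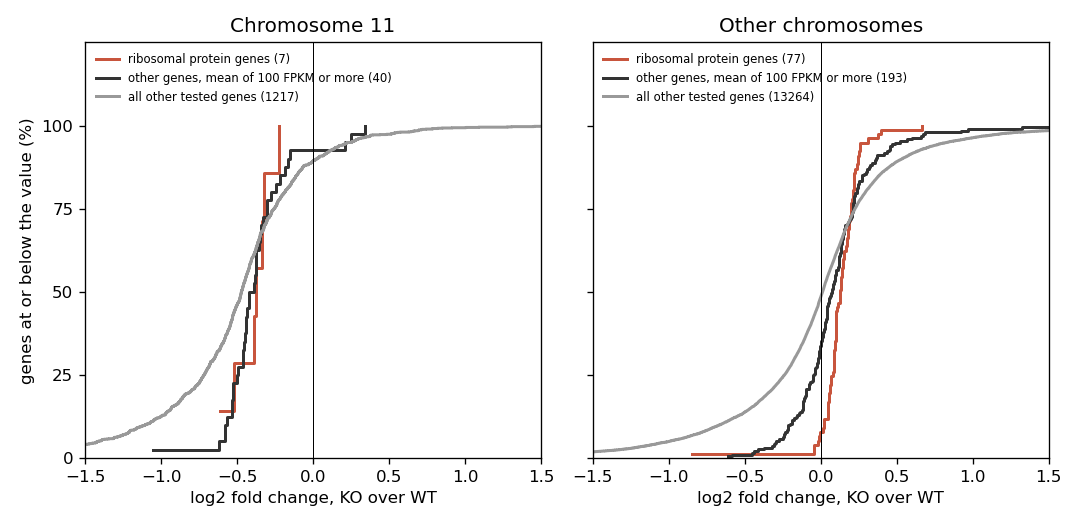
Cumulative share of genes by log2 fold change (KO over WT) on chromosome 11 and on the other chromosomes, for ribosomal protein genes, for other genes averaging 100 FPKM or more, and for all other tested genes. Values beyond 1.5 in size are not drawn. On chromosome 11 the medians are -0.37, -0.40 and -0.47, and elsewhere they are 0.13, 0.07 and 0.01.

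*Rps13*, a small subunit protein that contacts the large subunit, had the highest fold change among abundant members. It measured 506, 521 and 526 FPKM in WT and 650 and 712 FPKM in KO. The groups were far apart relative to the WT spread (KO mean 132% of WT, log2 fold change 0.39, SE 0.05, limma adjusted p = 0.00244). *Rpsa*, also known as the laminin receptor, is needed for late maturation of the small subunit and measured 311, 335 and 332 FPKM in WT and 407 and 440 FPKM in KO (130% of WT, log2 fold change 0.38, SE 0.06, limma adjusted p = 0.00328). *Rps13* and *Rpsa* were also called under each of 17 alternative fits.

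*Rps2*, at the entry of the messenger RNA channel, measured 222, 205 and 206 FPKM in WT and 250 and 274 FPKM in KO (log2 fold change 0.31, limma adjusted p = 0.00789). Both KO values exceeded the highest WT value. *Rps20*, the most abundant of all 84, measured 876, 868 and 936 FPKM in WT and 1063 and 1068 FPKM in KO (log2 fold change 0.26, limma adjusted p = 0.00972). After quantile normalization its log2 fold change was 0.052 and the call was lost (limma adjusted p = 0.373). *Rps12* measured 437, 426 and 454 FPKM in WT and 501 and 538 FPKM in KO (log2 fold change 0.24, limma adjusted p = 0.0121, 0.0621 without the second KO line, and 0.13 with the call kept after quantile normalization), and *Rpl30* measured 222, 232 and 218 FPKM in WT and 261 and 272 FPKM in KO (log2 fold change 0.25, limma adjusted p = 0.00628). These too did not overlap.

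The stalk proteins recruit elongation factors to the large subunit. *Rplp1* measured 753, 707 and 734 FPKM in WT and 854 and 900 FPKM in KO (log2 fold change 0.26, limma adjusted p = 0.00836), and *Rplp0*, the base of the stalk, measured 340, 323 and 351 FPKM in WT and 387 and 392 FPKM in KO (log2 fold change 0.21, limma adjusted p = 0.0158, lost without either KO line and after quantile normalization). For both genes the KO lines were highest. *Rplp2* measured 389, 343 and 335 FPKM in WT and 383 and 436 FPKM in KO. The first KO line lay below the first WT line, and the difference did not pass (log2 fold change 0.20, SE 0.08, limma adjusted p = 0.105). It passed in 1 of 18 fits, without the first WT line (log2 fold change 0.27, limma adjusted p = 0.0464). The log2 fold change was 0.30 without the first KO line and 0.11 without the second.

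The smallest called increases were those of *Rpl27a*, *Rps10*, *Rps9*, *Rpl14*, *Rps15a*, *Rps23* and *Rps18*, with log2 fold changes from 0.13 to 0.17. All but *Rps18* lost the call in at least 4 of the 5 fits that each left out a library, and *Rpl14*, *Rps23* and *Rps18* lost it after quantile normalization (limma adjusted p = 0.745, 0.402 and 0.0517). *Rps10* measured 264, 262 and 264 FPKM in WT and 281 and 297 FPKM in KO, and *Rps18* measured 162, 163 and 162 FPKM in WT and 181 and 186 FPKM in KO. For both genes the WT lines differed by a few FPKM at most and the KO lines lay above them. *Rps23*, a protein of the decoding centre, measured 696, 730 and 719 FPKM in WT and 793 and 810 FPKM in KO (log2 fold change 0.17, limma adjusted p = 0.0258).

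No call was made for 45 genes, of which 40 had a fold change above 0 and 5 below. Among the 44 of them with a WT mean of at least 10 FPKM, the log2 fold changes ran from -0.04 to 0.26, and the 95% intervals reached no lower than -0.15 and no higher than 0.46. *Rpl4*, an abundant message of the large subunit, measured 734, 698 and 717 FPKM in WT and 721 and 767 FPKM in KO, so that the groups overlapped (log2 fold change 0.05, limma adjusted p = 0.414).

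Small and large subunit genes were compared within the 77 genes outside chromosome 11. Of 32 small subunit genes 19 were called higher and 0 lower, all 32 had a fold change above 0, and the median was 0.17. Of 45 large subunit genes 12 were called higher and 1 lower, and the median was 0.10. The higher calls come to 59.4% of the small and 26.7% of the large subunit genes, against 20.2% of the other genes of these chromosomes and 37.3% of the abundant ones. The 45 large subunit genes summed to 6.22 to 6.45% of total FPKM in WT and 6.61 and 6.82% in KO, and the 32 small subunit genes to 4.48 to 4.52% in WT and 4.93 and 5.10% in KO. Neither overlapped. With chromosome 11 included, where 6 of the 7 genes are of the large subunit, the 51 large subunit genes summed to 7.61 to 7.89% in WT and 7.67 and 7.88% in KO, which overlapped, and the 33 small subunit genes to 4.63 to 4.67% and to 5.05 and 5.21%. The sums are dominated by the most abundant genes, and the difference between subunits was not tested.

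Summed over each set, the 7 genes of chromosome 11 stood at 3296, 3184 and 3342 FPKM in WT and 2515 and 2482 FPKM in KO, 76.3% of the WT mean. The 77 others stood at 22929, 22223 and 22862 FPKM in WT and at 24640 and 25477 FPKM in KO, 110.5% of the WT mean. The genes of chromosome 11 thus supplied 12.6 ± 0.12% of all ribosomal protein FPKM in WT (SD, n = 3) and 9.26 and 8.88% in the KO lines. All 84 together took 12.7 and 13.1% of total FPKM in KO.

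Many ribosomal protein genes carry small nucleolar RNAs (snoRNAs), guides of ribosomal RNA modification, in their introns. In the annotation 30 of the 84 genes held 59 snoRNAs. The counts of higher calls that follow are to be read against the same 20.2% of other genes and 37.3% of abundant ones. Outside chromosome 11, 12 of 28 host genes and 19 of 49 other genes were called higher, with medians of 0.13 and 0.13. Genes outside chromosome 11 with a promoter entry were split by a pyrimidine tract within 5 bases of the annotated start. Of those with it 14 of 27 were called higher (median 0.15), and of those without 10 of 31 (median 0.11). For TGCCGC the counts were 7 of 10 with (median 0.18) and 17 of 48 without (median 0.13). For CCGGAAG they were 9 of 23 with (median 0.13) and 15 of 35 without (median 0.14), and for AAGATGGC 2 of 6 with (median 0.093) and 22 of 52 without (median 0.14). Over the 74 genes outside chromosome 11 with at least 10 FPKM in WT, fold change and WT level had a Spearman rho of 0.02, and fold change and exon length had -0.19. These genes share libraries and scaling, and the values are descriptions.

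Several members are paralogues used in particular tissues. *Rpl10l*, a copy of the X-linked *Rpl10* active in the testis, measured 9.99, 10.1 and 9.53 FPKM in WT and 12.2 and 20.3 FPKM in KO. The second KO line stood well above the first (log2 fold change 0.67, SE 0.20, limma adjusted p = 0.0369), and without it the log2 fold change was 0.30 (limma adjusted p = 0.0259). Without any of the WT lines the call was lost, with limma adjusted p from 0.0889 to 0.103. *Rpl10l* stood at 4.001 ± 0.22% of *Rpl10* in WT (SD, n = 3) and at 4.37 and 7.71% in KO. *Rpl10l* and *Rps4l* resemble *Rpl10* and *Rps4x* closely, and reads shared between copies make their values uncertain.

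*Rpl3l*, the form of *Rpl3* of striated muscle, measured 0.36, 0.21 and 0.18 FPKM in WT and 0.10 and 0.08 FPKM in KO, with an estimated 7.07 fragments in the lowest library. Its log2 fold change of -0.85 (SE 0.27, limma adjusted p = 0.0477) lay close to the threshold, and the call was lost without any of the 5 libraries. With a pseudocount of 0.01 FPKM its log2 fold change was -1.32, and with 1 FPKM it was -0.19 and not called (limma adjusted p = 0.0772). *Rpl39l*, the testis form of *Rpl39*, measured 2.81, 1.88 and 2.42 FPKM in WT and 1.78 and 2.88 FPKM in KO, and the groups overlapped fully. *Rpl22l1*, which can replace *Rpl22*, measured 19.2, 17.4 and 21.1 FPKM in WT and 22.3 and 23.5 FPKM in KO, a difference just beyond the threshold (log2 fold change 0.26, SE 0.08, limma adjusted p = 0.0511). *Rps27l*, a target of p53, measured 44.9, 38.8 and 42.8 FPKM in WT and 44.0 and 51.2 FPKM in KO (limma adjusted p = 0.15). *Rpl7l1* ranged from 47.0 to 49.1 FPKM and *Rps4l* from 87.3 to 95.6 FPKM over the 5 libraries, with neither called.

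Genes around the ribosomal proteins were taken from lists by role. Their counts stand beside the shares over all tested genes, 18.8% higher and 22.3% lower, and beside the 67.2% lower among other genes of chromosome 11. Of 4 listed ribosomal proteins outside the rule for symbols, 1 was called higher and 2 lower. *Gnb2l1*, which encodes the scaffold RACK1 of the small subunit and lies on chromosome 11, measured 394, 391 and 437 FPKM in WT and 323 and 315 FPKM in KO (log2 fold change -0.35, limma adjusted p = 0.00527). *Rps27rt* (log2 fold change 0.18, limma adjusted p = 0.019, lost in 3 of the 5 fits that left out a library and after quantile normalization) was higher, *Fau* had 0.10 and was not called, and *Rpl36al* on chromosome 12 was lower at 155, 155 and 160 FPKM in WT and 140 and 130 FPKM in KO (log2 fold change -0.21, limma adjusted p = 0.0124, 0.052 without the second KO line).

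Of 65 ribosome assembly factors 6 were called higher (9.23%) and 14 lower (21.5%). All 8 of them on chromosome 11 were lower, as were most genes of that chromosome, among them *Pes1* (log2 fold change -0.67, limma adjusted p = 0.000345), which is needed for large subunit processing, and *Nle1* (-0.86, limma adjusted p = 0.003). Of the 57 elsewhere 6 were higher, with *Surf6* (0.33) and *Emg1* (0.26) at the top, and 6 lower (10.5% each), with a median of 0.02, against 20.2% higher and 18.2% lower among the other genes outside chromosome 11. Both lost the call without the second KO line, *Emg1* also without the first or the second WT line. Of 16 genes of the RNA polymerase I machinery, which transcribes ribosomal RNA, 2 were higher and 3 lower, no more than over all genes. The catalytic subunit gene *Polr1a* measured 28.0, 28.8 and 29.2 FPKM in WT and 32.9 and 34.4 FPKM in KO, and *Rrn3* had a log2 fold change of 0.13. *Taf1b* (-0.60) and *Polr1e* (-0.29) were lower. *Rrn3* and *Polr1e* each lost the call in 4 of the 5 fits that left out a library. Of 8 escort proteins that carry new ribosomal proteins to the nucleolus, *Tsr2*, the escort of RPS26, was called higher (0.19) and *Pdcd2l* lower (-0.32). The call of *Tsr2* was lost without any of the 5 libraries, and that of *Pdcd2l* without the first KO line (limma adjusted p = 0.0779).

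Other messages with terminal oligopyrimidine tracts and elongation factors numbered 17, all outside chromosome 11. Of these 4 were called higher (23.5%) and 1 lower (5.88%), with a median log2 fold change of 0.05. Among other genes outside chromosome 11, 20.2% were higher and 18.2% lower, and among the abundant ones 37.3% and 14.0%. *Tpt1* measured 428, 420 and 416 FPKM in WT and 509 and 508 FPKM in KO (log2 fold change 0.27, 0.15 with the call kept after quantile normalization), and *Pabpc1* had 0.21, with the call lost in 3 of the 5 fits that left out a library and after quantile normalization. *Vim* measured 41.6, 47.5 and 41.7 FPKM in WT and 91.4 and 61.6 FPKM in KO (0.78), with the first KO line far above the second. Its log2 fold change was 0.50 without the first KO line and 1.07 without the second. *Eif3l* was lower (-0.32). Of 25 regulators of ribosomal protein messages 7 were higher and 3 lower. Outside chromosome 11, 7 of 22 were higher (31.8%) and 0 lower, beside the same 20.2% and 18.2% of other genes. The 3 lower ones were the regulators on chromosome 11, where most genes were lower. They were *Rps6kb1* (-0.50), which encodes a kinase of the small subunit protein RPS6, *Rptor* (-0.45), a subunit of mTORC1, and *Larp1* (-0.44), which binds terminal oligopyrimidine tracts. *Larp1* falls outside the rule for naming genes and was chosen after its values were seen. *Myc*, an activator of ribosome biogenesis, measured 2.02, 1.92 and 1.25 FPKM in WT and 3.49 and 4.33 FPKM in KO (log2 fold change 1.15, SE 0.22, limma adjusted p = 0.00787, 0.0646 without the second KO line), and *Rps6ka2* had 0.55.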

How the data were processed

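The authors deposited gene expression of 5 ES cell RNA-seq libraries as FPKM in a single table with 2 decimals, and the submitters' processing notes list the build mm10, Trim Galore 0.2.7 and STAR 2.5.2. How fragments were counted, the annotation, the transcript lengths, the use of strand and the handling of reads with several matches are not given in the sources used here. The deposited ZFP57 peaks are positions without a score, called in at least 2 WT replicates. Every per-sample column was used.

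Members were found by symbol and placed on GRCm38 with RefSeq, as were 23193 genes of the table by symbol and 1096 by a synonym. Another 107 had no match and 13 had several. The members and the gene lists were chosen with earlier results of these data known. WT (n = 3) and KO (n = 2) libraries were compared with limma 3.58.1 (eBayes with trend, R 4.3.3) on the log2 of FPKM + 0.1, for genes that averaged 0.1 FPKM or more, with Benjamini-Hochberg adjustment over 14612 genes and a threshold of 0.05. Fold changes on this scale understate the change of genes near 0. For a single gene an exact permutation test of 3 against 2 libraries cannot go below p = 0.1, so none is given. The fit was tested on simulated data first. Depth was estimated from genes under 200 bp long with low values above 0, 411 to 463 per library. The step was chosen to bring the largest share of them within 0.1 of a whole number of fragments, 91.7 to 94.8%. That share is therefore no separate check of the estimate. Intervals are 95% intervals.

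Genes named are every member of chromosome 11, *Rpsa* and the stalk genes, the 8 highest and 8 lowest called members elsewhere, the 5 most abundant, members with symbols ending in l, l1 or y or under 10 FPKM, and the 2 highest and 2 lowest called genes of each list. *Zfp57* is also named. Other genes given with values (*Rps29*, *Rpl15*, *Rpl34*, *Rpl34-ps1*, *Rps27*, *Fau*, *Larp1*, *Pou5f1* and the fibroblast genes at 0) fall outside it and were chosen after their values were seen. Tables were handled with Python 3.11.15, pandas 2.3.3 and numpy 2.4.6, and figures drawn with matplotlib 3.10.9. Alternatives covered the pseudocount, the filter, scaling, the variance model, chromosome medians, a replicate block, single libraries and the threshold. The CCGGAAG and AAGATGGC counts and the comparison with abundant genes were added with the data in hand. Another gene of the lists was left out and is not reported here.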

Additional observations from a re-analysis of the deposited data

How the results depend on the processing

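The 31 higher and 8 lower calls, and the medians of -0.37 on chromosome 11 and 0.13 elsewhere, were recomputed under each alternative. Pseudocounts of 0.01 and 1 FPKM, filters and other scalings gave 23 to 43 higher and 7 or 8 lower calls, and all 7 genes of chromosome 11 stayed lower. Quantile normalization moved the medians to -0.43 and 0.068. With each chromosome's own median subtracted, 31 genes were higher, 1 was lower and 0 of chromosome 11 were lower. The median of chromosome 11 was then 0.10, and *Rpl19* (0.090), *Rpl23* (0.14), *Rpl23a* (0.25), *Rpl27* (0.10), *Rps27a* (0.16), *Gnb2l1* (0.13) and *Rptor* (0.034) turned positive, which follows from the subtraction. Without the variance trend 14 were higher, and at an adjusted p under 0.01, 13 were higher and 6 lower. Leaving out a single library gave 16 (without the second KO line) to 27 higher calls, 18 without the second and 20 without the third WT line. It gave 6 to 7 lower calls, 6 to 7 on chromosome 11, medians there of -0.40 to -0.34, and medians elsewhere of 0.11 to 0.16. Where this leaves a lone KO library, it is assumed to vary like the WT lines. Deviations from the group means correlated by -0.07 and -0.04 between lines of the same number. The 2 KO lines deviate from their mean by equal and opposite amounts, so these values cannot settle whether the numbers pair the lines. With a replicate block, to which the third WT line contributes nothing, 5 were higher, 5 lower, all 5 on chromosome 11, with medians of -0.34 and 0.14. Over 59 named genes and 17 alternatives, 837 of 1001 values kept direction and side of the threshold, 140 lost the call, 7 gained it and 17 changed sign. Besides the 7 genes above, these were *Rps4l*, *Rpl7l1* and *Rpl39l*, which had no call. *Rps4l* had -0.0069 with equal totals, -0.013 with quantile normalization and -0.15 with chromosome medians subtracted (limma adjusted p = 0.0426), and *Rpl7l1* had 0.0093 and 0.012 with median-of-ratios scaling. With a library left out, *Rps4l* ranged from -0.034 to 0.079, *Rpl7l1* from -0.042 to 0.013 and *Rpl39l* from -0.38 to 0.29. The causes of the other shifts were not tested.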

Other observations

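The pluripotency and lineage genes that served to check the cell type also differed between the groups. Of 11 naive ES cell markers 5 were called higher in KO and 2 lower, beside 18.8% higher and 22.3% lower over all tested genes and 37.3% higher among abundant genes outside chromosome 11. *Klf4* measured 30.1, 25.9 and 28.3 FPKM in WT and 42.3 and 51.7 FPKM in KO (log2 fold change 0.74, limma adjusted p = 0.00248), and *Tfcp2l1* measured 90.1, 87.4 and 88.6 FPKM in WT and 132 and 137 FPKM in KO (0.60, limma adjusted p = 0.000365). *Prdm14* (-0.43) and *Klf2* (-0.28) were lower, and without the second KO line the call of *Klf2* was lost (log2 fold change -0.24, limma adjusted p = 0.0869). None of the 2 tested fibroblast markers passed limma's adjusted threshold, and at an unadjusted p under 0.05 0 of them did. Of 4 tested trophoblast markers *Eomes* was higher, at 0.51, 0.60 and 0.38 FPKM in WT and 2.13 and 2.40 FPKM in KO, and of 4 tested primitive endoderm markers *Sox7* was, at 0.09, 0.15 and 0.11 FPKM in WT and 0.90 and 0.48 FPKM in KO.

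Retrocopies of ribosomal protein genes reached high values. *Rpl34-ps1* was listed at 451 to 485 FPKM and *Rps27rt* at 317 to 377 FPKM over the 5 libraries, above *Rpl34* at 272 to 292 FPKM and *Rps27* at 192 to 229 FPKM. *Rpl34-ps1* had a log2 fold change of 0.01 (limma adjusted p = 0.853) and *Rpl34* also 0.01 (limma adjusted p = 0.854), whereas *Rps27rt* and *Rps27* both had 0.18. How reads with several matches were counted is not given, so the levels of such copies and their parent genes are uncertain. *Rpl34-ps1*, *Rpl34* and *Rps27* were chosen after their values were seen, whereas *Rps27rt* falls under the rule for naming genes.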
